A study of Arabidopsis thaliana with 12 samples.

Results

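Whole Arabidopsis thaliana seedlings of 3 lines with lesions in fatty acid synthesis or desaturation were compared with seedlings of 3 lines without such a lesion, all at ambient temperature and before any cold treatment. The 6 ambient arrays were taken by their titles from 12 Affymetrix ATH1 arrays; the other 6 hold the same lines in the cold and served as a second set of samples. The mutants were fab1, fad2 and fad3/7/8, and the other lines were Col-0, Col-aeq and 35S-FAD3. The question was whether mutants with more saturated or less desaturated membranes already stood in a cold-like state at their growth temperature, as the title of the series concerns the part of membrane fluidity in sensing low temperature.

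The fab1 mutation lowers the elongation of palmitate in the plastid, so that membranes hold more of this saturated fatty acid. In fad2 the desaturase that turns oleate into linoleate outside the plastid is defective, and fad3/7/8 lacks the desaturases that make trienoic from dienoic fatty acids in both compartments. Per the labels, fab1 and fad2 arose by EMS mutagenesis, fad3/7/8 came from crosses of such mutants, and its title also gives it aequorin, a calcium reporter protein. Col-0 is the Columbia wild type and Col-aeq, from its name, the Columbia line with aequorin. The titles name the 35S-FAD3 line for a linoleate desaturase under the viral 35S promoter, while its genotype label gives 35S::apoaequorin alone. It was grouped here by title, and it is an altered line too, one expected to have more trienoic fatty acids, not a wild type. Seedlings of every group were sown on MS medium, kept in a fridge for 4 days, and grown to stage 1.02 at 20 °C under a day of 16 h and a night of 8 h. Each line had 1 ambient array, labelled replicate 1, so every p-value below measures the spread between lines and not between separate growths of a line. The annotation used names no probe set for any of the mutated genes, so the arrays do not show whether each line carried its lesion.

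In plants, cooling makes membranes more rigid, which is held to be an early step in sensing cold. Cold then induces the CBF transcription factors, which switch on COR genes for dehydrins and chloroplast protectants that guard cells against freezing. Trienoic fatty acids, the products of FAD3, FAD7 and FAD8, are also the starting material of jasmonate, a hormone of wounding and defence that induces genes such as the plant defensin PDF1.2 and the oxygenases that inactivate jasmonate.

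The authors' values are MAS5 signals, scaled alike on each array. A probe set was tested if its mean signal over the 6 ambient arrays was at least 20, which left 14180 probe sets, 7617 of them with a single gene name. Differences are mutants minus other lines on the scale of log2(signal + 1.6). One ambient array, that of Col-aeq, differed from the rest in control measures of RNA integrity. The ratio of 3' to 5' actin signal was 23.3 there and 6.22 to 10.1 elsewhere, and for GAPDH it was 3.54 there and at most 1.66 elsewhere. Ribosomal 25S signal was 2463 there and 134 to 312 elsewhere. It was also the ambient array farthest from each of the others, with a median absolute log2 difference of 0.31 to 0.38, while fad3/7/8 and 35S-FAD3 were the closest pair at 0.16. Pairs of mutants differed by 0.18 to 0.29 and pairs of a mutant with another line by 0.16 to 0.38, so the ambient arrays did not sort by the presence of a lipid lesion. Values without Col-aeq are given where they move a list's median or a named value most.

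The COR genes, which mark the cold response, did not separate the mutants from the other lines at ambient temperature. Of 22 listed genes of the CBF regulon, 6 were named on the array and 4 of these were tested; 3 differences were positive and 1 negative, with a median of 0.16, beside 0.02 for all probe sets tested. Without Col-aeq all 4 were positive, with a median of 0.35. In limma's test of the 3 mutants against the 3 other lines, 0 of 14180 probe sets passed at an adjusted p under 0.05, a percent called of 0, and 256 had an unadjusted p under 0.05.

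COR15A, which protects chloroplast membranes during freezing, had an ambient signal of 166 in fab1, 485.5 in fad2 and 319 in fad3/7/8, against 193 in Col-0, 277.5 in Col-aeq and 215 in 35S-FAD3. The fad2 and fad3/7/8 arrays were above the 3 other lines and fab1 was below them. The class difference was 0.38 (SE 0.35; 95% interval −0.39 to 1.16). Its close relative COR15B had a signal of 75.2 in fab1, 316 in fad2 and 223 in fad3/7/8, against 183 in Col-0, 349 in Col-aeq and 113 in 35S-FAD3, a difference of −0.15 (SE 0.53). Col-aeq was the highest and fab1 the lowest, and the groups overlapped; the sign of this small difference turned to 0.28 without Col-aeq.

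The dehydrins, proteins that protect cells from loss of water, were as close. COR47 had a signal of 899 in fab1, 888 in fad2 and 991 in fad3/7/8, against 838 in Col-0, 1054 in Col-aeq and 573.5 in 35S-FAD3, and differed by 0.21 (SE 0.22), or 0.42 without Col-aeq. LTI30 had 426, 518 and 514 in fab1, fad2 and fad3/7/8, against 435, 487 and 437 in Col-0, Col-aeq and 35S-FAD3, and differed by 0.10 (SE 0.16). Signals on the cold arrays of the same lines lay far above these values, at 2060.5 to 2489.5 for LTI30 in the mutants and 1963 to 2487 in the other lines. For the 4 tested COR genes, the upper end of the 95% interval of the ambient difference was 1.16, 1.04, 0.71 and 0.46 for COR15A, COR15B, COR47 and LTI30. The smallest cold rise in any of the 6 lines was 1.41, 1.89, 1.25 and 1.99 for the same genes. The ambient class differences were thus smaller than the cold rise for each of the 4, whereas a shift of the size of the interval could not be told from none. This holds for the class mean and not for each mutant. For COR15A, fad2 alone differed from the other lines by 1.097, while fab1 was below each of them. The smallest cold rise of COR15A, 1.41, was that of fad2, which had the highest ambient signal and went from 485.5 to 1290.1. The fad2 excess in COR15A was thus not small beside its own cold rise.

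COR27 and AT4G33980, known as COR28, are cold-induced genes tied to the circadian clock. Their mean ambient signals were under 20, so they were not tested. COR27 had a signal of 2.9 in fab1, 6.6 in fad2 and 31.1 in fad3/7/8, against 11.7 in Col-0, 19.9 in Col-aeq and 1.4 in 35S-FAD3. For AT4G33980 the ambient signal was 10.8 in fab1, 7.2 in fad2 and 51.3 in fad3/7/8, against 4.4 in Col-0, 33.8 in Col-aeq and 7.4 in 35S-FAD3. Both genes were highest in fad3/7/8 with Col-aeq second, so higher ambient values were seen in both classes. Their cold signals, at 227 to 516 in the mutants and 147 to 462 in the other lines, were well above those in the ambient arrays.

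STZ, also called ZAT10, a zinc-finger repressor induced early by cold and other stresses, was the single tested member of its list. It had an ambient signal of 67.4 in fab1, 42.5 in fad2 and 66.2 in fad3/7/8, against 36.8 in Col-0, 46.5 in Col-aeq and 34.3 in 35S-FAD3. Both fab1 and fad3/7/8 stood above the other lines, with fad2 below Col-aeq. The difference was 0.55 (SE 0.23, limma adjusted p = 0.991). The cold signals of STZ were 637 to 881 in the mutants and 691 to 817 in the other lines, so the ambient values in fab1 and fad3/7/8 were a small part of the cold level. GI, a gene of the circadian clock that is also cold-induced, had 243, 245 and 398 in fab1, fad2 and fad3/7/8, against 202, 190.5 and 234 in Col-0, Col-aeq and 35S-FAD3. These groups did not overlap, and the difference was 0.46 (SE 0.22, limma adjusted p = 0.991).

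**Figure D1:**
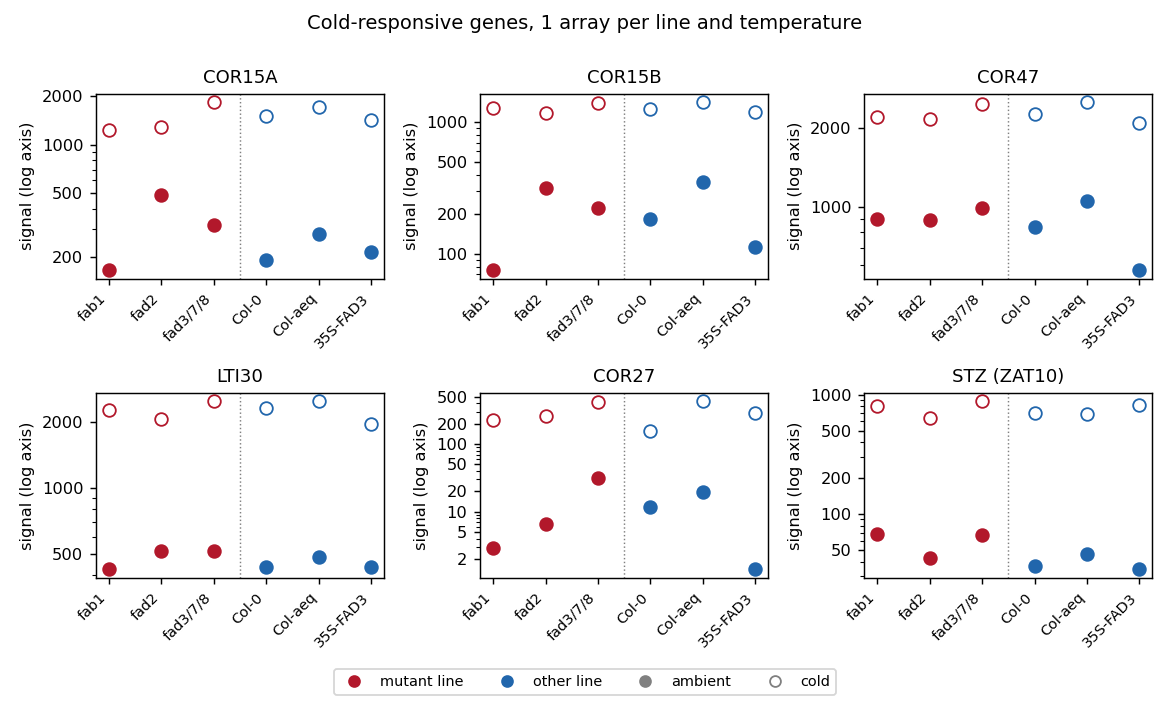
Signal (log axis) of 6 cold-responsive genes in the 3 mutant lines (red, left) and the 3 other lines (blue, right), with filled points for ambient arrays and open points for cold arrays, 1 array each. For COR15A, COR15B, COR47 and LTI30 the ambient points of the groups overlap, and each lies below every cold point. For COR15A fad2 is the highest at 485.5, against 277.5 in Col-aeq, and for COR15B fab1 is the lowest at 75.2, against 113 in 35S-FAD3.

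To place each ambient array on the whole cold response, pairs of lines were compared over genes chosen in the 4 lines outside the pair: the 200 probe sets with the largest rise and the 200 with the largest fall in the cold, each with the same sign in all 4. The difference between the ambient arrays of the pair, rising minus falling, was expressed as a percent of the cold change of those 4 lines. It is a description with no p-value, and pairs that share a line share an array.

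The mutants did not take a common position. The fad2 array stood 8.97% of the cold change from Col-0, 12.1% from Col-aeq and 13.8% from 35S-FAD3 in the direction of cold, with a mean of 11.6%. The fab1 array stood the opposite way, at −8.76% from Col-0, −5.33% from Col-aeq and −6.11% from 35S-FAD3, with a mean of −6.73%. The fad3/7/8 array lay at −2.71%, 1.60% and 0.43% against the same lines, with a mean of −0.22%. Between pairs of the other lines the values were within 4.67% in either direction. The fad2 array was thus outside that spread on the side of cold, fab1 outside it on the side away from cold, and fad3/7/8 inside it. With 400 probe sets each way, fab1 at −6.42% no longer lay outside the spread, as pairs of the other lines then reached 8.07%. The same held with a pseudocount of 16, with fab1 at −6.87% and pairs of the other lines up to 7.44%. The fad2 mean stayed outside the spread in both settings, at 10.6% and 11.9%. Its lowest pair was 6.49% with 400 probe sets, within the spread, and 7.70% with the pseudocount of 16, barely beyond it. Over the 9 pairs of a mutant with another line the mean was 1.55%.

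Both fab1 and fad2 kept their side without the Col-aeq line, at −6.31% and 10.1%, and fad3/7/8 then stood at −0.88%. Without the Col-0 line fab1 stood at −4.17%. When the position was computed with each line in turn set against the 5 others, the ambient arrays stood at −6.65% for fab1, 15.7% for fad2 and 0.69% for fad3/7/8, against 4.93% for Col-0, −0.88% for Col-aeq and −0.51% for 35S-FAD3. The cold arrays stood at 96.7%, 105% and 89.5% in fab1, fad2 and fad3/7/8, against 104%, 101% and 96.4% in Col-0, Col-aeq and 35S-FAD3. The ambient position of fad2, the largest of the 6, was therefore far from that of any cold array. Here the 5 other lines both chose the genes and set the zero point, which can move the remaining line's ambient array toward cold. The pairwise values do not have this overlap.

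**Figure D2:**
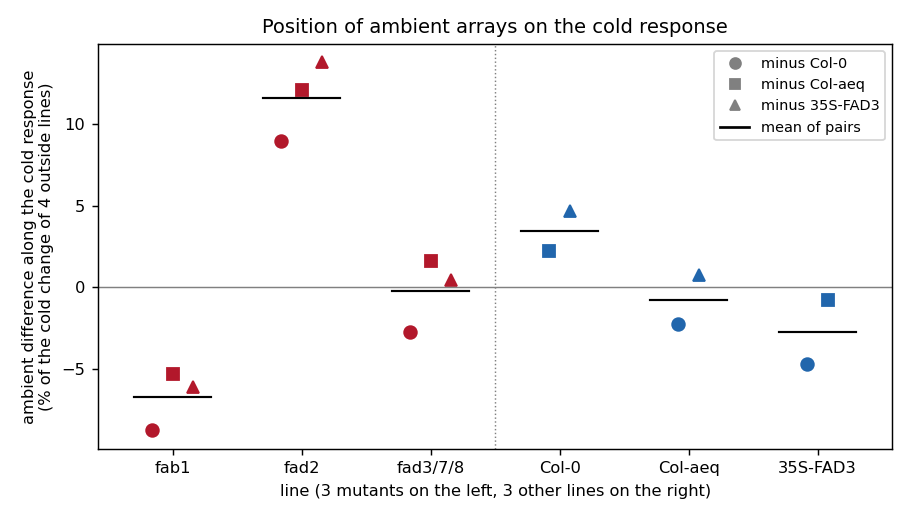
Difference between ambient arrays along the cold response, in percent of the cold change of the 4 lines outside each pair, for the 3 mutants (red, left) and the 3 other lines (blue, right). Each point is 1 pair, its shape shows the line subtracted, and the bar is the mean of the pairs; fad2 averages 11.6% and fab1 −6.73%, while the pairs among the other lines lie within 4.67%.

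The position of fad2 came more from genes that fall in the cold than from genes that rise. Over falling genes alone fad2 stood at 20.1%, and over rising genes alone at 5.76%. Of the falling probe sets, 69% to 77% were lower in fad2 than in Col-0, Col-aeq or 35S-FAD3, where 45.5% to 49.7% of all probe sets were lower. Of the rising probe sets, 54.5% to 62% were higher in fad2, where 50.1% to 54.3% of all probe sets were. In fad3/7/8 the gene groups went apart, with 4.94% over rising genes and −7.43% over falling ones, and in fab1 both were away from cold, at −5.08% and −9.09%. Pairs of the other lines reached 9.10% over falling genes alone and 4.13% over rising genes alone, so over falling genes fad2 alone of the 3 mutants lay beyond them on average, while over rising genes all 3 did, with fab1 on the side away from cold.

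Genes of these lists are named here after their values were seen, from those farthest beyond the nearest other line among probe sets present in all 3 lists of a mutant. AT5G01740, lowered by cold in all 6 lines, had an ambient signal of 24.7 in fad2, against 78.5 in Col-0, 123 in Col-aeq and 69.8 in 35S-FAD3. In fab1 the same gene stood at 236, above every other ambient array, and its cold signals were 10.6 to 38.4 in the mutants and 25 to 26.7 in the other lines. The ambient value in fad2 was thus at the level that Col-0, Col-aeq and 35S-FAD3 reached in the cold.

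AT2G32150 had an ambient signal of 294 in fad2, against 577 in Col-0, 824 in Col-aeq and 592 in 35S-FAD3, and a cold signal of 100 in fad2, against 173 to 194 in the other lines. AT1G80630 had 19.9 in fad2, against 41.7 to 55.3 in the other lines. It was not low in fad2 alone, as fab1 and fad3/7/8 were also below every other line, at 32.9 and 35.2. PUB26, of the U-box ubiquitin ligases, had 24.6 in fad2, against 46.4 to 60.2 in the other lines. AT3G62950 had 8.0 in fad2, against 22.4 to 57.1. All 4 were lowered by cold and had their lowest ambient signal in fad2, and for AT3G62950 and AT1G80630 the fad2 signal was under 20, so that the size is uncertain. Of rising genes in fad2, COR15A is given above, SERPIN1, a protease inhibitor, had 246.5 against 154 to 166 in the other lines, and AT5G62210 had 74.1 against 16.5 to 47.3.

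The rising genes that were farthest out in fad3/7/8 included AT5G62360, of the pectin methylesterase inhibitor family. Its ambient signal was 198.5 in fad3/7/8, against 23.4 in Col-0, 102 in Col-aeq and 41.4 in 35S-FAD3, and in the cold it was 784 in fad3/7/8 and 434 to 765 in the other lines. AT1G51610 and AT5G50450 had 128.5 and 132 in fad3/7/8, against 47.4 to 70.9 and 68.7 to 85.8 in the other lines. For AT5G62360, Col-aeq was second to fad3/7/8, as for COR27 and AT4G33980. In fab1 the rising gene farthest out was AT2G36220, at 100.4 against 60.7 to 67.6, with 351 in the cold. AT3G23170, also raised by cold, had 58.7, 49.7 and 59.2 in fab1, fad2 and fad3/7/8. That was above the 37.7 to 48.7 of the other lines, and in the cold the groups overlapped.

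The second question was whether any gene set the 3 mutants apart as a class. By limma none did at an adjusted p under 0.05. The class difference had a median SE of 0.21, and its 95% interval reached 0.47 to either side on the log2 scale at the median. Of 14180 probe sets, 519 were higher in every mutant than in every other line (percent called 3.66) and 386 were lower in every mutant (percent called 2.72). Without Col-aeq, with 3 mutants against 2 lines, these counts were 869 (6.13%) and 844 (5.95%).

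The cold arrays of the same lines gave a check that used none of the ambient arrays. There, 379 probe sets were higher in every mutant and 379 lower (2.67% each). Of the 519 higher at ambient temperature, 29 were again higher in every mutant in the cold (5.59%), and 10 were lower in every mutant. Of the 386 lower ones, 17 were again lower (4.40%) and 9 were higher. The shares of 5.59% and 4.40% were above the 2.67% of all probe sets. Because the lines are the same at both temperatures, any lasting difference between lines can raise such shares. Other splits of the 6 lines were not counted, so the shares cannot be tied to the mutants as a class. Most of the probe sets that separated the classes at ambient temperature still did not separate them in the cold. Of the 20 genes named next, 0 separated them in the cold in the same direction.

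The named genes of the class comparison are, since no gene passed, the 10 higher and 10 lower single-gene probe sets of lowest p among those with no overlap. PDF1.2b, a plant defensin of the PDF1.2 group, which jasmonate and ethylene induce, had the largest difference. It had an ambient signal of 23.0 in fab1, 38.3 in fad2 and 21.4 in fad3/7/8, against 208 in Col-0, 159.6 in Col-aeq and 87.0 in 35S-FAD3. The 3 mutants were all below the lowest other line, 5.10-fold lower on average (difference −2.35, SE 0.33, limma adjusted p = 0.626; adjusted p = 1 without Col-aeq). In the cold it had 53.6 in fab1, 24.5 in fad2 and 63.8 in fad3/7/8, against 122 in Col-0, 42.3 in Col-aeq and 48.8 in 35S-FAD3, and the groups overlapped. The probe set is of a type that can also bind transcripts of related genes, so its reading is not certain to be PDF1.2b alone. The defensin genes PDF2.1, PDF2.5, LCR68 and LCR69, added after values were seen, differed by 0.07 to 0.29, so the low values were not common to all defensins measured.

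BGLU28, a beta-glucosidase known from the response to sulfur shortage, had 10.4, 17.4 and 6.6 in fab1, fad2 and fad3/7/8, against 43.2, 25 and 28.7 in Col-0, Col-aeq and 35S-FAD3. It was 2.68-fold lower (difference −1.42, SE 0.37, limma adjusted p = 0.991), and with mutant signals under 20 the size is uncertain. BGLU28 reached the mean signal of 20 only through the other lines, so its place among the lower genes is a description. AT1G04770, known as SDI2 and also induced by sulfur shortage, had 130.4, 107 and 123.5 in the mutants in the same order, against 206, 189.8 and 151 in the other lines. PDF1.4, another defensin, had 52.0, 30.0 and 39.4 in the mutants, against 66.0, 81.0 and 59.0 in the other lines (difference −0.76, SE 0.23). Cold signals of BGLU28, AT1G04770 and PDF1.4 overlapped between the groups.

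CYP71B24, of the cytochrome P450 family, had 36.3, 27.2 and 23.4 in fab1, fad2 and fad3/7/8, against 50, 43.7 and 66.2 in Col-0, Col-aeq and 35S-FAD3. AT4G38760 had 38.7, 82.5 and 40.3 in the mutants, against 105, 83.4 and 116 in the other lines, so that fad2 was barely below Col-aeq and the difference lay in fab1 and fad3/7/8. The other 4 lower genes, AT3G02190, AT3G16175, AT1G13650 and AT5G23460, differed by −0.73 to −0.61. Cold lowered AT1G13650 and AT5G23460 in every line, with mean changes of −1.55 and −1.18. AT1G13650 had 86.3 to 110.5 in the mutants at ambient temperature, against 125.7 to 203.7 in the other lines. Its cold signals were 33.4 to 52.6 over all lines.

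The 10 higher genes differed less, by 0.49 to 0.90 on the log2 scale (1.4 to 1.86-fold), each with a limma adjusted p of 0.991. AT5G04960 had the largest, with 50.4 in fab1, 112 in fad2 and 57.9 in fad3/7/8, against 37.0 in Col-0, 28.4 in Col-aeq and 45.3 in 35S-FAD3. AT2G36220, which cold raises in all lines by 2.31 on average, had 100.4, 88.0 and 91.9 in the mutants, against 60.7, 64.0 and 67.6 in the other lines. Its cold signals were 307 to 483 in the mutants and 357 to 449 in the other lines, so the ambient excess was small beside the cold rise. AT3G15570 had 142, 140.4 and 141 in the mutants, against 93.0, 98.5 and 103 in the other lines, and it was close to even within each group. The other 7 were AT2G22530, AT5G14330, AT4G10470, AT2G18670, AT2G16660, AT3G45850 and AT5G17910. Of these, AT5G14330 had 26.7, 39.1 and 31.8 in the mutants, against 18.9, 19.3 and 17.1 in the other lines. It reached the mean signal of the filter only through the mutants, so its place among the higher genes is a description.

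**Figure D3:**
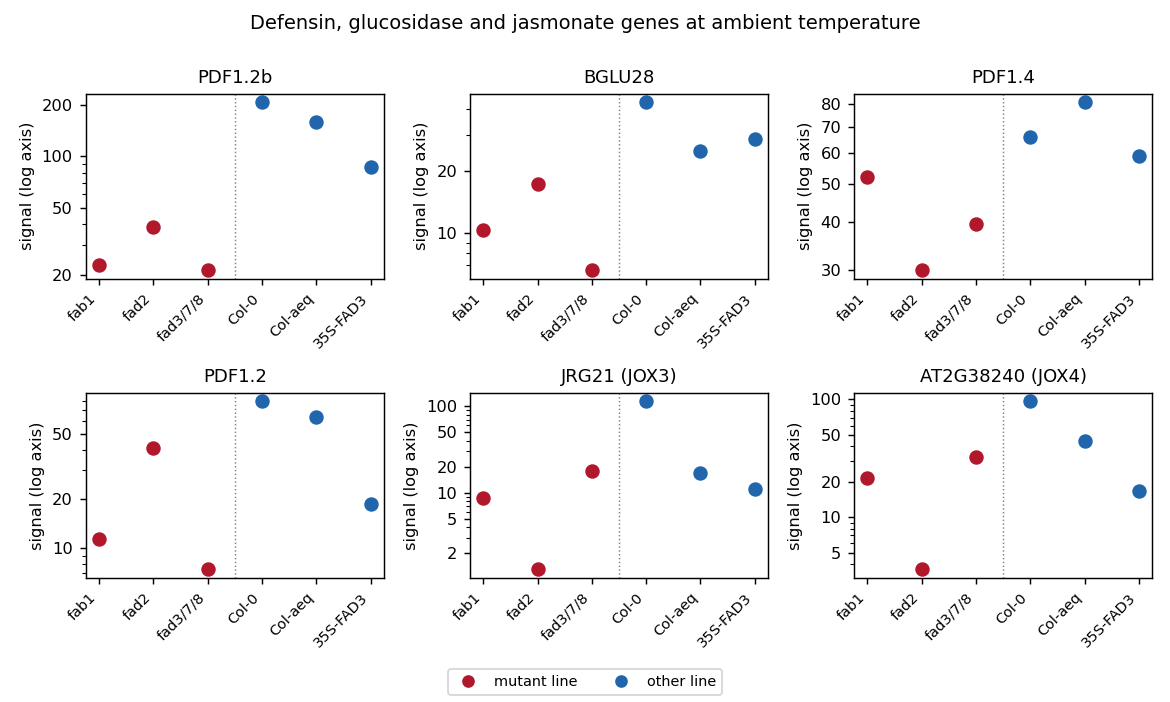
Ambient signal (log axis) of 6 genes in the 3 mutant lines (red, left) and the 3 other lines (blue, right), 1 array each. For PDF1.2b, BGLU28 and PDF1.4 every mutant lies below every other line, while for PDF1.2, JRG21 and AT2G38240 the 35S-FAD3 point lies among or near the mutants.

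Jasmonate genes were the listed group with the median farthest from 0, and Col-0 was the highest array for 5 of the 6 tested. Of 30 listed genes, 9 were named on the array and 6 of these were tested; 0 passed, 5 were negative and 1 positive, and the median difference was −1.39, beside 0.02 for all probe sets. Among all 14180 probe sets tested, 6570 were negative and 7610 positive. In 0 of the 6 jasmonate genes did the ambient groups separate. PDF1.2, the sister of PDF1.2b, had 11.4 in fab1, 41.0 in fad2 and 7.4 in fad3/7/8, against 79.7 in Col-0, 64.2 in Col-aeq and 18.6 in 35S-FAD3 (difference −1.48, SE 0.64). Its probe set and that of PDF1.2b may read some of the same transcripts, so they are not separate evidence. In the cold PDF1.2 did separate the groups, with 11.2, 13.2 and 6.4 in fab1, fad2 and fad3/7/8, against 46.5, 27 and 15.2 in Col-0, Col-aeq and 35S-FAD3.

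The jasmonate oxygenases hydroxylate jasmonate and so inactivate it. JRG21, known as JOX3, had 8.6, 1.3 and 18.0 in fab1, fad2 and fad3/7/8, against 114, 16.9 and 10.9 in Col-0, Col-aeq and 35S-FAD3 (difference −1.84, SE 0.88). JRG21 passed the filter through Col-0 alone. PDF1.2 and AT2G38240 passed it only through the other lines, as their mean signals over the mutants fell short of it. Such entry favours a negative difference, so the list median is a description. The median of the 5 other jasmonate genes tested was −1.34, but PDF1.2 and AT2G38240 are among them. The remaining genes, OPCL1, AT5G05600 and AT1G10585, differed by 0.46, −0.61 and −1.34. AT2G38240, known as JOX4, had 21.5, 3.6 and 32.7 in the mutants, against 96.4, 44.7 and 16.6 in the other lines (−1.44, SE 0.74). In the cold AT2G38240 was lower in every mutant, at 18.4, 4.7 and 10, against 153, 84.7 and 25.6 in the other lines. As for PDF1.2, this stands beside 2.67% of all probe sets tested that were lower in every mutant in the cold. AT5G05600, known as JOX2, had 60.4, 35.0 and 73.7, against 198, 77.0 and 37.5 (−0.61, SE 0.51). In each of the 3 oxygenase genes, Col-0 was the highest ambient array, fad2 the lowest and 35S-FAD3 lay within the range of the mutants. The value of JOX2 was 0.00 without Col-0. AT3G11180, known as JOX1, was not tested at signals of 1.3 to 3.6 in the mutants, against 5.9 to 12.7 in the other lines.

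AT1G10585, a bHLH transcription factor gene, had 34.3, 11.5 and 16.3 in fab1, fad2 and fad3/7/8, against 130.5, 57.3 and 16.0 in Col-0, Col-aeq and 35S-FAD3 (−1.34, SE 0.65). OPCL1, an enzyme that activates jasmonate precursors, was the positive member at 0.46 (SE 0.32), or 0.11 without Col-aeq. The jasmonate methyltransferase JMT and the thionin THI2.1 were at signals of 13.0 or less on every ambient array and were not tested. In the cold THI2.1 separated the groups the opposite way to PDF1.2, at low signals of 6.8 to 9.5 in the mutants, against 1.2 to 6.7. Low signals limit the sizes of JRG21, AT2G38240 and PDF1.2, whose lowest mutant signals were 1.3, 3.6 and 7.4.

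Each mutant was then set against the 3 other lines by itself. With a single array per mutant the spread was that of the other lines, and the mutant array was taken to vary like them. By limma 0 of 14180 probe sets passed in fab1, fad2 or fad3/7/8 (percent called 0 each), with 175, 785 and 167 at an unadjusted p under 0.05. These 3 comparisons share the same 3 other lines. Counted instead as more than 2-fold beyond the nearest of the 3 other lines, fad2 had 89 higher and 38 lower probe sets (percent called 0.628 and 0.268). Likewise fab1 had 3 higher and 26 lower (0.0212 and 0.183), and fad3/7/8 had 5 higher and 14 lower (0.0353 and 0.0987). The filter's mean includes the mutant arrays, so a probe set high in 1 mutant could be tested through that array alone. An unnamed probe set, for example, had 128 in fad2 and 0.5 to 3.0 on the other ambient arrays. How many of the higher fad2 probe sets entered in this way was not counted.

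For fad2, part of the probe sets with higher signals were found again in the cold, and some of these may have been tested only through fad2. Of its 89 higher probe sets, 41 were also more than 2-fold above all 3 other lines on the cold arrays (46.1%), where 71 of 14180 were in all (0.501%). Of its 38 lower ones, 7 were again lower (18.4%), where 40 were in all (0.282%). For fab1 it was 0 of 3 higher and 1 of 26 lower (3.85%, where 0.0494% were in all). For fad3/7/8 it was 0 of 5 higher and 3 of 14 lower (21.4%, where 0.106% were in all), a share like that of the lower fad2 genes. Of the 8 genes named for each mutant, 8 stood beyond all 3 other lines in the cold as well for fad2, 5 for fad3/7/8 and 3 for fab1. Of all probe sets, 31.8% were above and 28.0% below all 3 other lines in the cold for fad2, 25% and 25.5% for fad3/7/8, and 18.7% and 22.4% for fab1, so that the 3 of 8 for fab1 is near this background. For AT3G47800, AT5G62360 and AT5G39580 in fad3/7/8 and JRG21 in fad2 the distance in the cold was under 0.2 on the log2 scale.

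Among named genes with a signal of at least 50, the one farthest above the other lines in fad2 was AT3G13610, known as F6'H1, which makes the precursor of the coumarin scopoletin. Its ambient signal was 680.2 in fad2, against 126 in Col-0, 72.7 in Col-aeq and 106 in 35S-FAD3, and 62.6 and 138 in fab1 and fad3/7/8. The fad2 value was 6.76-fold that of the other lines on average (difference 2.76, SE 0.35, limma adjusted p = 0.259), and without Col-aeq the gene passed (2.54, adjusted p = 0.0107). AT4G36430, a class III peroxidase gene, had 203 in fad2, against 44.6, 32.7 and 42.6 in Col-0, Col-aeq and 35S-FAD3 (2.31, SE 0.31), and passed without Col-aeq (2.18, limma adjusted p = 0.028). AT3G54040 had 381 in fad2, against 91.5, 73.9 and 99.2 (2.1, SE 0.29), and passed likewise (1.98, limma adjusted p = 0.028). All 3 were again far above the other lines in the cold, at 640.2, 174 and 297 in fad2. AT2G15560 had 139 in fad2, against 14.6, 1.1 and 34.6, and 153 in the cold. In fab1 and fad3/7/8 it had 14.2 and 8.9, so its mean signal reached the filter only through the fad2 array. Its place among the genes named for fad2 is therefore a description, and with low signals elsewhere the size is uncertain.

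Without Col-aeq, 13 probe sets passed for fad2 and all were higher; 4 had a gene name, the 3 above and AT2G19970, and 9 did not. That fit sets 1 array against 2, with 1 residual degree of freedom, and 2 probe sets passed when 35S-FAD3 was left out instead, so these calls rest on how close the remaining lines lay. One of the unnamed ones had an ambient signal of 909.9 in fad2, against 74.1 in Col-0, 15 in Col-aeq and 85.3 in 35S-FAD3. The same probe set had 12.3 in fab1, which passed as lower there without Col-aeq (−2.54, limma adjusted p = 0.0254), the single call for fab1. Another had 2296 in fad2, against 184, 123 and 335 in Col-0, Col-aeq and 35S-FAD3. Both were picked for their values, and their cold signals in fad2 were 779 and 2149.

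Lowest against the other lines in fad2 were JRG21 and AT2G38240, given above, then AT3G49160, a pyruvate kinase gene, and AT5G01740. AT3G49160 had 22.0 in fad2, against 75.6, 99.6 and 69.9 in Col-0, Col-aeq and 35S-FAD3 (−1.80, SE 0.31, limma adjusted p = 0.477), and 60.7 and 56.0 in fab1 and fad3/7/8. In the cold it had 17.0 in fad2, against 38.4 to 72.0 in the other lines.

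In fab1 the 4 genes farthest above the other lines were AT5G01740, AT2G30600, AT4G04630 and AT3G19680. AT2G30600 had 661 in fab1, against 279, 171 and 368 in Col-0, Col-aeq and 35S-FAD3, but it was also high in fad3/7/8 at 592. AT3G19680 had 156 in fab1, against 77.5 to 91.6. In the cold, AT5G01740 alone of the 4 stayed above all 3 other lines. Lower in fab1 were PDF1.2b, AT4G38760, AT4G22610 and AT2G18900, and AT4G38760 and AT4G22610 were below all 3 lines in the cold too, AT4G38760 at 43.1 against 71.6 to 96.9.

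In fad3/7/8 the highest against the other lines were AT3G47800, AT5G62360, AT2G37130 and AT1G51610. AT3G47800 had 88.4 in fad3/7/8, against 38.0, 43.5 and 35.1 in Col-0, Col-aeq and 35S-FAD3, and 49.1 against 36.7 to 46.3 in the cold. AT2G37130, a peroxidase gene, had 365 in fad3/7/8, against 200.3, 178 and 195, and did not stand above all 3 lines in the cold. The lowest were PDF1.2b, PDF1.2, AT4G38760 and the peroxidase gene AT5G39580, and of these PDF1.2 kept most of its distance in the cold, at 6.4 against at least 15.2.

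**Figure D4:**
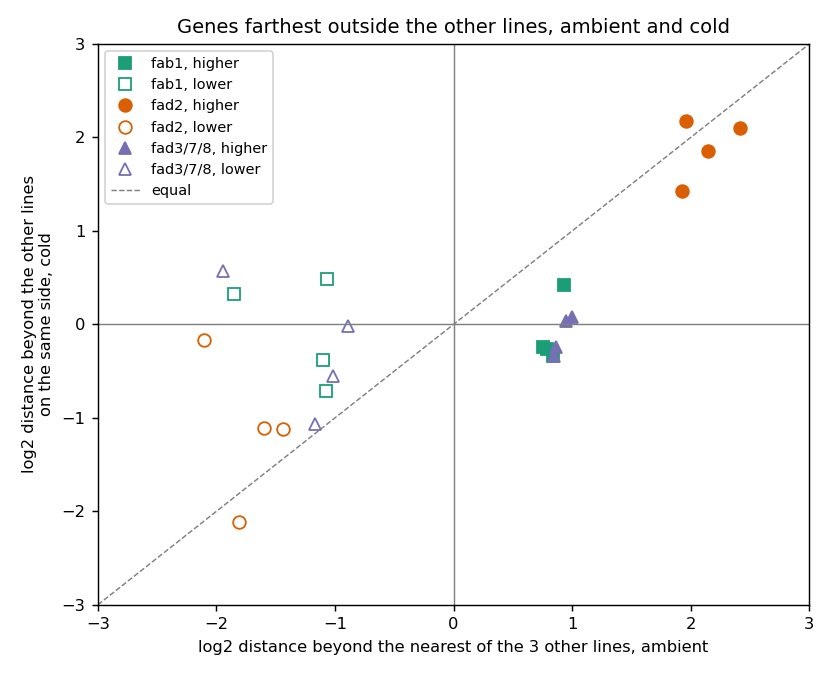
Distance on the log2 scale of 8 genes per mutant beyond the nearest of the 3 other lines at ambient temperature (x axis) and beyond the same side of those lines in the cold (y axis), with filled symbols for genes higher and open ones for genes lower at ambient temperature. All 8 fad2 genes keep their sign between the x and y axes, while 5 of 8 for fad3/7/8 and 3 of 8 for fab1 do; of all probe sets, 18.7% to 31.8% lie beyond the 3 other lines on a given side in the cold.

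The other gene groups were read the same way. In all, 18 lists held 289 genes, of which 74 were named on the array and 64 were tested, in 15 lists; 0 passed in either direction. The lists for touch and calcium, salicylate and defence, and seed storage had 0 tested members, so nothing can be said of them here. Values are given for the 3 members of lowest p in each list, and for some others.

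For lipid genes themselves, 3 of 31 could be tested, all acyl carrier protein thioesterases, which release finished fatty acids from the plastid. FATB, which releases saturated ones, had 422 in fab1, 353 in fad2 and 342 in fad3/7/8, against 331.5 in Col-0, 299 in Col-aeq and 305 in 35S-FAD3. The groups did not overlap, but the difference was 0.25 (SE 0.16, limma adjusted p = 0.991), and in the cold they overlapped. FaTA stood at 0.45 (SE 0.27; 0.24 without Col-aeq) and AT4G13050 at −0.10 (SE 0.19).

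Of the heat shock and protein folding genes tested, 0 passed. AT5G48570, known as ROF2, had 71.9, 47.9 and 83.5 in fab1, fad2 and fad3/7/8, against 35.6, 54.3 and 39.3 in Col-0, Col-aeq and 35S-FAD3 (0.62, SE 0.25, limma adjusted p = 0.991), with fad2 below Col-aeq. BOB1, a small chaperone, stood at −0.33 (SE 0.18). In the unfolded protein response, BZIP60, ATERDJ3B and CRT1b differed by −0.10, 0.04 and −0.03 (SE 0.18 to 0.22). Among them fad2 had the highest signals of ATERDJ3B, at 259.5 against 167 to 195 in the other lines, and of CRT1b, at 507 against 381 to 417.

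Cell wall and root genes had mostly positive differences, and fad2 was the highest array for several of them. Since these are whole seedlings, more cells of a type and more RNA per cell cannot be told apart. Of 7 tested genes of cell wall loosening 6 were positive, with a median of 0.49, and without Col-aeq 5 were, with a median of 0.22. GH9C2, an endoglucanase, had 156 in fab1, 437 in fad2 and 219.5 in fad3/7/8, against 210.3 in Col-0, 61.3 in Col-aeq and 212 in 35S-FAD3 (0.81, SE 0.50), and the difference was 0.22 without Col-aeq. XTH19 had 34.1, 131 and 30.4 in the mutants, against 39.5, 13.4 and 46.8 in the other lines. In both, fad2 was the highest and Col-aeq the lowest array. The value for XTH19 was 0.78 (SE 0.58), 0.26 without Col-aeq and −0.10 with array weights.

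Of 7 tested root markers 6 were positive, with a median of 0.26, or 0.17 without Col-aeq. The root peroxidase AT4G26010 had 82.3, 291 and 91.1 in fab1, fad2 and fad3/7/8, against 104, 37.1 and 85.4 in Col-0, Col-aeq and 35S-FAD3, a difference of 0.89 (SE 0.50), or 0.46 without Col-aeq. AT5G17820, EXPA18 and EXPA7 were likewise highest in fad2, at 226, 63.7 and 56.6, against 82.3 to 105, 18.9 to 40.6 and 28.7 to 33.1 in the other lines. AT5G15180 had no overlap, with 25.4 to 38.6 in the mutants, against 14.4 to 24.0 in the other lines. PYK10, an abundant root beta-glucosidase, was even at 2286 to 2799 in the mutants, against 2479 to 2816. The part of root share in the fad2 values was not tested.

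Nuclear photosynthesis and tetrapyrrole genes stood level, with a median of 0.00 over 7. LHCB4.1, of the photosystem II antenna, had 3598 to 3789 in the mutants, against 3223 to 4144 in the other lines (−0.01, SE 0.13). HEME1 and PORB, of tetrapyrrole synthesis, stood at 0.35 (SE 0.19) and 0.53 (SE 0.35). Of PORB, fad2 and fad3/7/8 had 1022 and 853 and fab1 411, against 356 to 701 in the other lines. NdhS stood at −0.46 (SE 0.37), lowest in fad2 at 486 and highest in Col-aeq at 1704, with 985 and 1199.6 in fab1 and fad3/7/8.

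Of 5 tested phenylpropanoid and flavonoid genes, 3 were positive and 2 negative, with a median of 0.20, or −0.03 without Col-aeq. UGT78D2, a flavonoid glucosyltransferase that cold raises by 2.30, had 160.2, 165 and 112 in fab1, fad2 and fad3/7/8, against 199, 165 and 177 in Col-0, Col-aeq and 35S-FAD3 (−0.32, SE 0.20), so this cold-raised gene was not high in the mutants. UF3GT and DFR, of anthocyanin synthesis, were highest in fad2, at 52.9 and 58.4, against 25.9 to 32.7 and 19.0 to 34.6 in the other lines. AT1G23390, an F-box gene lowered in the cold (mean change −2.95), had 1202 in fad2, against 1473 to 1903 in the other lines, and stood at −0.16 (SE 0.18) over the class.

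Of the 9 ATG8 autophagy genes 8 were negative, with a median of −0.14, and without Col-aeq 6 were, with a median of −0.02. ATG8G, at −0.51 (SE 0.29), was high in Col-aeq at 124.5, with 46.6 to 64.9 in the mutants and 58.7 to 60.2 in 35S-FAD3 and Col-0. The abscisic acid markers went both ways, LEA4-5 at −0.42 (SE 0.48) and AT3G02480 at 0.55 (SE 0.55), the second through 136 in fad2, against 19.8 to 51.8 in the other lines. AT1G33055, of the low oxygen list, stood at −0.29 (SE 0.33), or 0.09 without Col-aeq. The reference genes, used in other studies as constant, had a median of 0.03, with PEX4 at 0.04 (SE 0.16) and GAPC2 at 0.02 (SE 0.13). AT2G28390, at 0.37 (SE 0.25), had 46.8 in Col-aeq and 87.4 to 99.8 on the other ambient arrays.

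**Figure D5:**
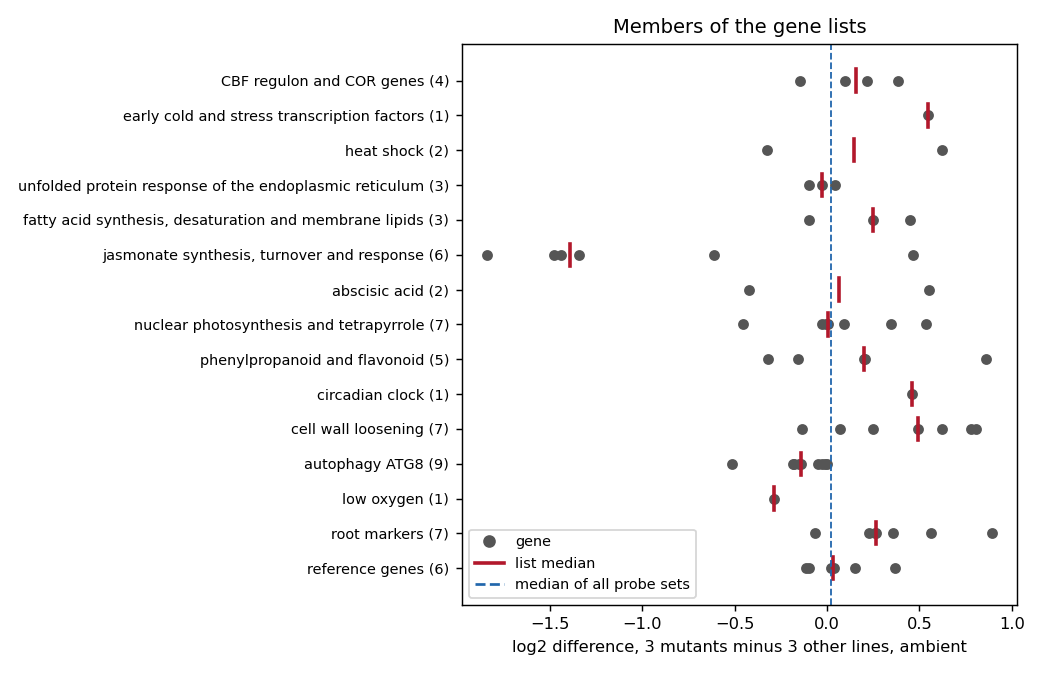
Difference between the 3 mutants and the 3 other lines at ambient temperature (log2 scale) for each tested member of 15 gene lists, with the number of tested members in brackets, the list median as a red bar and the median of all probe sets, 0.02, as a dashed line. The jasmonate list has a median of −1.39 and every other list lies between −0.29 and 0.55. In the jasmonate list, JRG21, PDF1.2 and AT2G38240 reached the filter only through the other lines.

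Last, the class difference was compared between temperatures over the 6 within-line cold changes. By limma 0 of 14193 probe sets passed (percent called 0), and 516 had an unadjusted p under 0.05.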

How the data were processed

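Each array read biotin-labelled total RNA of whole seedlings, per the labels' protocols. The deposited values are intensity, the linear MAS5 signal of 22810 probe sets on 12 arrays; the submitters' processing notes name MAS5 and GCOS with no version, and the temperature and length of the cold are likewise not given in the sources used here. Since 2% trimmed means were the same on all 12 arrays, no further scaling was applied. No pair of arrays was identical (0 pairs). Arrays have no read depth, and their number limits the precision.

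Genes were named from GEO's platform table: 14016 probe sets are listed there, 13513 with 1 gene and 503 with several, and 8794 are unnamed here. Of the 13513, 13436 matched a RefSeq gene of TAIR10.1. The 64 control probe sets were left out of tests. Log2(signal + 1.6) was used, 1.6 being the 10th percentile of all values, so that low signals have understated folds. The filter was a mean signal of 20 over the 6 ambient arrays. limma 3.58.1 in R 4.3.3 (eBayes with an intensity trend) compared the classes with 4 residual degrees of freedom, each mutant with the mean of the other lines with 2, and the 6 within-line cold changes between classes with 4; probe sets passed at a Benjamini-Hochberg adjusted p under 0.05. An exact permutation of 3 lines against 3 cannot give a two-sided p under 0.1. The remaining steps ran in Python 3.11.15 with NumPy 2.4.6, pandas 2.3.3 and, for plots, matplotlib 3.10.9. Scripts were tested on simulated data.

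Named genes were, for the class, the 10 higher and 10 lower single-gene probe sets past the threshold or else of lowest p among those without overlap; for each mutant, the 4 highest and 4 lowest by distance from the nearest other line, with a signal of at least 50 among those compared; for each list, the 3 tested members of lowest p, with all members of the CBF and jasmonate lists. Further names were chosen after their values were seen. The members, the 18 lists and the tests were chosen with earlier results of these data known. Alternatives changed the pseudocount, the filter, the scaling, the variance model and the arrays used.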

Additional observations from a re-analysis of the deposited data

Results flagged for a closer look

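For 6 named genes, the cold change had the same sign in all 3 mutants and the opposite sign in all 3 other lines. Some of these changes were close to 0. AT3G54040 changed by −0.014 in fab1, and AT4G10470 by 0.037 in Col-0 and 0.021 in 35S-FAD3. The mean cold change on the log2 scale was −0.37 in the mutants and 0.39 in the other lines for AT2G22530, and −0.60 and 0.45 for AT5G14330. For AT4G10470 it was −0.33 in the mutants and 0.11 in the other lines, for AT2G18670 −0.24 and 0.18, and for AT3G54040 −0.30 and 0.18. AT3G02190 went the other way, with 0.36 in the mutants and −0.22 in the other lines. The test of the difference, limma's comparison of the within-line cold changes, gave an adjusted p of 0.957 for each of the 6. All but AT3G54040 were named because their ambient values did not overlap between the classes, and the cold change uses those same ambient arrays, so the pattern is not a separate result. AT5G14330 also reached the ambient filter only through the mutants.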

How the results depend on the processing

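No paired analysis was possible because every array is labelled replicate 1, so the numbers pair nothing; arrays were matched by line alone, for class by temperature and in the fit with line as a random block. Of 1260 recomputed single-gene values, 1236 kept their direction and their side of the threshold, 4 newly passed and 20 changed sign, none of these called; of 311 for the 20 genes of the class comparison, 310 stayed. PDF1.2b passed with array weights (−2.67, limma adjusted p = 0.0218), the 1 probe set then past the threshold for the class, and its adjusted p over the alternatives was 0.0218 to 1. Leaving out 1 ambient array gave 0 to 1 probe sets for fab1 and 0 to 13 for fad2, with 1 and 13 without Col-aeq and 2 for fad2 without 35S-FAD3; fad2 also had 1 with the pseudocount at the 25th percentile, 4 with a pseudocount of 16 and 1 without the intensity trend. For the class, fad3/7/8 and class by temperature, no other alternative gave a call. The cause was not tested. The cold position over falling genes alone was −9.09% for fab1, 20.1% for fad2 and −7.43% for fad3/7/8, and over rising genes alone 5.76% for fad2 and 4.94% for fad3/7/8; with 400 probe sets each way fad3/7/8 stood at −3.14%. Leaving out 1 line at a time, with lines other than Col-aeq added after the data were seen, gave −7.0% to −4.17% for fab1, the last without Col-0. With array weights the difference turned sign for COR15B (0.19), ATERDJ3B (−0.11), NdhS (0.20), AT1G23390 (0.042) and XTH19 (−0.10). Over the runs without 1 array, values crossed 0 for COR15B (−0.57 to 0.45), COR47 (−0.023 to 0.42), ATERDJ3B (−0.18 to 0.17), CRT1b (−0.22 to 0.14), AT4G13050 (−0.22 to 0.028), AT5G05600 (−1.17 to 0.0014), AT3G02480 (−0.14 to 0.99), LEA4-5 (−0.76 to 0.20), AT3G13610 over the class (−0.092 to 1.61), AT1G23390 (−0.25 to 0.0039) and AT1G33055 (−0.65 to 0.090). Signals under 20, as for COR27, AT4G33980 and several jasmonate genes, limit their sizes.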
